A study of Homo sapiens with 6 samples.

Results

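The transcripts of the mitochondrial genome were examined in CFPAC-1 cells, a human line derived from a pancreatic ductal adenocarcinoma. They were chosen by name, as all genes whose symbol starts with MT-, and number 37 of the 59962 genes in the deposited table. They comprise 2 ribosomal RNAs (rRNAs), 13 mRNAs and 22 tRNAs. The RNA-seq libraries fall into 3 groups of 2: cells with SULF2 knockdown by sgRNA1, cells with SULF2 knockdown by sgRNA3, and control cells carrying a guide against the bacterial gene LACZ. Total RNA was extracted with TRIzol from all 3 groups, and the labels give no time point and no account of clones, pools or separate cultures. SULF2, the targeted gene, encodes an extracellular sulfatase of heparan sulfate. It stood at 8.98 and 12.81 TPM (a level per transcript length, scaled to the same total in every library) with sgRNA1 and 10.07 and 9.24 TPM with sgRNA3, against 25.69 and 22.52 TPM in LACZ, so its level is lower in every library labelled as knockdown (log2 change -1.09 and -1.23, limma adjusted p = 0.0338 and 0.0215). That call was lost in 5 of 12 other settings and 5 of 6 fits without 1 library with sgRNA1, and in 3 and 4 with sgRNA3, while the sign stayed.

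Human mitochondrial DNA is a small circle that is transcribed as long polycistronic RNAs from both strands. Most genes are read as part of one long precursor from the heavy-strand promoter, in the order MT-RNR1, MT-RNR2, MT-ND1, MT-ND2 and onwards, and the tRNAs that lie between them are cut out, which frees the rRNAs and mRNAs. MT-RNR1 (12S rRNA) and MT-RNR2 (16S rRNA) form the core of the small and the large subunit of the mitochondrial ribosome, which translates only the mitochondrial mRNAs. Those mRNAs encode subunits of the respiratory chain and the ATP synthase: 7 of complex I, 1 of complex III, 3 of complex IV and 2 of complex V. The light strand carries 9 of the 37 genes, the mRNA MT-ND6 and 8 tRNAs.

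The stretch of the precursor shown here runs from the end of MT-RNR2 through MT-TL1, the gene of a leucine tRNA, into MT-ND1. In GENCODE 29 on GRCh38, MT-RNR1 lies at chrM:648-1601 and MT-RNR2 at chrM:1671-3229, both on the plus strand. MT-TL1 follows at chrM:3230-3304 with no base between, and MT-ND1 starts 2 bases after it, at chrM:3307-4262. MT-ND2 is at chrM:4470-5511. The sequences are shown because the RNA before this tRNA was lower and the RNA after it higher in the knockdown libraries. They are the last 60 bases of MT-RNR2 (chrM:3170-3229), all 75 bases of MT-TL1, and the first 30 bases of MT-ND1 (chrM:3307-3336), from the GENCODE 29 transcripts, 5′ to 3′. Capitals in MT-TL1 mark the 13-base element bound by the termination factor MTERF1, and capitals in MT-ND1 mark its first codon.
MT-RNR2 end: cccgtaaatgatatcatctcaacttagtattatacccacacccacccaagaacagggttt
MT-TL1: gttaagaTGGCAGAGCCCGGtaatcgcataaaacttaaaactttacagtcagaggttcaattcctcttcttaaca
MT-ND1 start: ATAcccatggccaacctcctactcctcatt
By annotated length, 6 of the 13 mRNAs end in an incomplete codon that the poly(A) tail completes to a stop, and MT-ND1 and MT-ND2 are among them. MT-ATP6, whose last annotated base (chrM:9207) is also the first of MT-CO3, is not counted among the 6. The last 20 bases of MT-ND1 and MT-ND2 (chrM:4243-4262 and chrM:5492-5511) are shown with the incomplete codon in capitals.
MT-ND1 end: agcattccccctcaaaccTA
MT-ND2 end: ttttatactaataatcttaT

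Of 10 markers of ductal epithelium, 9 were at 1 TPM or more in every library, with KRT19 at 2481 to 2915 TPM. CFTR, the exception, was at 0.07 to 0.38 TPM. The summed level of the 10 ductal markers was 8054 to 8238 TPM with sgRNA1 and 8671 to 8720 TPM with sgRNA3, against 9095 to 9267 TPM in LACZ, and KRT18, KRT19 and SOX9 were lower with both guides. The 6 fibroblast markers summed to 58.57 to 60.51 TPM with sgRNA1 and 37.56 to 41.74 TPM with sgRNA3, against 77.54 to 77.87 TPM in LACZ, nearly all of it COL1A1, while COL3A1 and DCN did not exceed 0.11 TPM. The 6 leukocyte markers summed to 102 to 107 TPM with sgRNA1 and 112 to 114 TPM with sgRNA3, against 96.6 to 102 TPM in LACZ, mostly CD68, with PTPRC at no more than 0.10 TPM, and the 5 endothelial markers to 4.45 to 5.99 TPM over all libraries. The part of these shifts in the results was not tested.

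Of the 37 genes, 17 were above 0 and passed the filter on low values, namely both rRNAs, all 13 mRNAs and 2 tRNAs, MT-TS1 and MT-TP. The other 20 tRNAs were listed at 0 in all 6 libraries. All tRNA genes are short, at 59 to 75 bases, and an exact 0 for such short RNAs can be a failed estimate, so no level is read from it. Together the 37 genes took 11.2% and 10.9% of all TPM with sgRNA1 and 10.5% and 10.3% with sgRNA3, against 10.6% and 10.7% in LACZ. Both sgRNA1 libraries were above and both sgRNA3 libraries below the LACZ libraries. In bulk libraries, a change in the mix of cells and a change in mitochondrial RNA per cell cannot be told apart. The mean of the 4 knockdown libraries differed from that of LACZ by 0.0823 percentage points, and an exact two-sided permutation test over libraries gave p = 0.933.

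The 16S rRNA, MT-RNR2, was lower with both guides, while the 12S rRNA, MT-RNR1, did not pass the test with either on the TPM scale. MT-RNR2 (ENSG00000210082) was at 4895 and 4706 TPM with sgRNA1 and 4696 and 4689 TPM with sgRNA3, against 7800 and 7597 TPM in LACZ. All 4 knockdown libraries lie far below both LACZ libraries, and the spread within each group is small beside that gap. Its level averaged 4801 ± 134.0 TPM with sgRNA1 (SD, n = 2), 4693 ± 4.38 TPM with sgRNA3 and 7699 ± 144 TPM in LACZ. It was thus at 62.4% of the LACZ level with sgRNA1 and at 61.0% with sgRNA3. On the log2 scale, in a limma fit over all genes, the difference from LACZ was -0.68 for sgRNA1 (SE 0.029, 95% interval -0.75 to -0.61, adjusted p = 8.3e-04). For sgRNA3 it was -0.71 (SE 0.029, 95% interval -0.79 to -0.64, adjusted p = 0.00116). Both comparisons use the same LACZ libraries. Between the guides the difference was -0.03 (95% interval -0.11 to 0.04, limma adjusted p = 0.645), so the guides were not told apart at this rRNA. Both calls held in every alternative run, with log2 changes of -0.56 to -0.79 with sgRNA1 and -0.66 to -0.72 with sgRNA3, and with any 1 library left out.

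MT-RNR1 (ENSG00000211459) was at 976 and 978 TPM with sgRNA1 and 1019 and 1064 TPM with sgRNA3, against 1059 and 1060 TPM in LACZ. With sgRNA1 both libraries were slightly below LACZ, and with sgRNA3 the groups overlap. By limma, sgRNA1 differed from LACZ by -0.12 on the log2 scale (95% interval -0.20 to -0.04, adjusted p = 0.0969) and sgRNA3 by -0.02 (95% interval -0.10 to 0.05, adjusted p = 0.654). The sign with sgRNA3 turns under median-of-ratios scaling (0.03), and with sgRNA1 MT-RNR1 was called lower when libraries were scaled to the mRNA sum (-0.22, adjusted p = 0.0311).

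**Figure D1:**
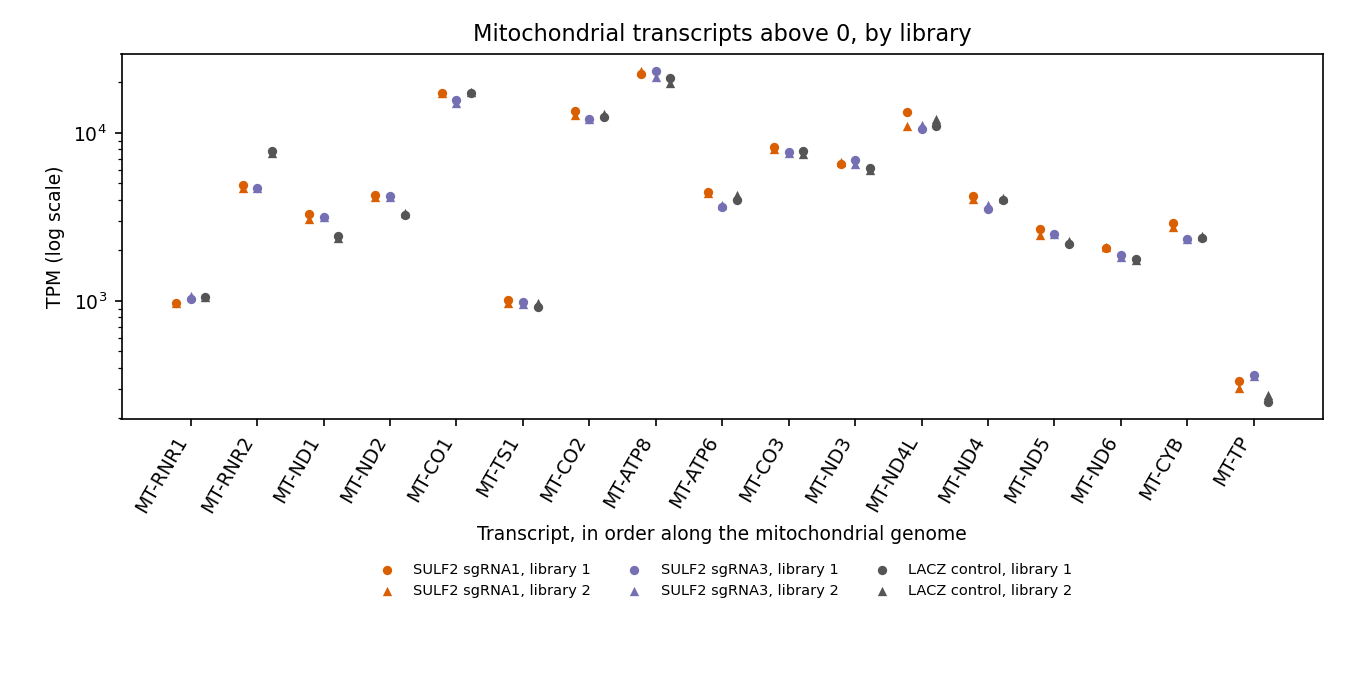
TPM on a log axis for the 17 mitochondrial transcripts above 0, in their order along the mitochondrial genome, with circles and triangles for the 2 libraries of each group. MT-RNR2 sits at 4689 to 4895 TPM in the 4 knockdown libraries and at 7597 and 7800 TPM in LACZ, while MT-RNR1 stays between 976 and 1064 TPM in all 6.

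Both rRNAs are cut from the same precursor, and their ratio within a library does not depend on how that library was scaled. MT-RNR2 was 5.01 and 4.81 times the TPM of MT-RNR1 with sgRNA1 and 4.61 and 4.41 times with sgRNA3, against 7.36 and 7.17 times in LACZ. The log2 ratio averaged 2.23 in the 4 knockdown libraries and 2.86 in the 2 LACZ libraries, a difference of -0.63, and all 4 knockdown libraries were lower (exact two-sided permutation p = 0.0667). That is the smallest p that 4 libraries against 2 allow, and 2 against 2 cannot go below 0.333. With every library scaled to its own MT-RNR1, a setting added after the data were seen, MT-RNR2 passed across all genes with sgRNA1 (log2 change -0.56, limma adjusted p = 0.00556) and with sgRNA3 (log2 change -0.69, limma adjusted p = 0.00271).

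MT-RNR2 was also lower relative to the mRNAs. It equalled 4.65% and 4.60% of the summed TPM of the 13 mRNAs with sgRNA1 and 4.82% and 4.91% with sgRNA3, against 8.11% and 7.86% in LACZ. The log2 ratio differed by -0.75 between the 4 knockdown libraries and LACZ (exact two-sided permutation p = 0.0667, the smallest possible). MT-RNR1 equalled 0.927% and 0.957% of the mRNA sum with sgRNA1 and 1.05% and 1.11% with sgRNA3, against 1.10% in each LACZ library (difference in log2 ratio -0.12, exact two-sided permutation p = 0.267). The mRNA sum itself was 105283 and 102212 TPM with sgRNA1 and 97502 and 95460 TPM with sgRNA3, against 96163 and 96623 TPM in LACZ. The sgRNA1 libraries are above LACZ and the sgRNA3 libraries lie on either side of it (difference in log2 sum 0.05, exact two-sided permutation p = 0.333). Scaling each library to this sum left MT-RNR2 lower with sgRNA1 (log2 change -0.79, limma adjusted p = 4.7e-04) and with sgRNA3 (log2 change -0.72, limma adjusted p = 0.00101).

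**Figure D2:**
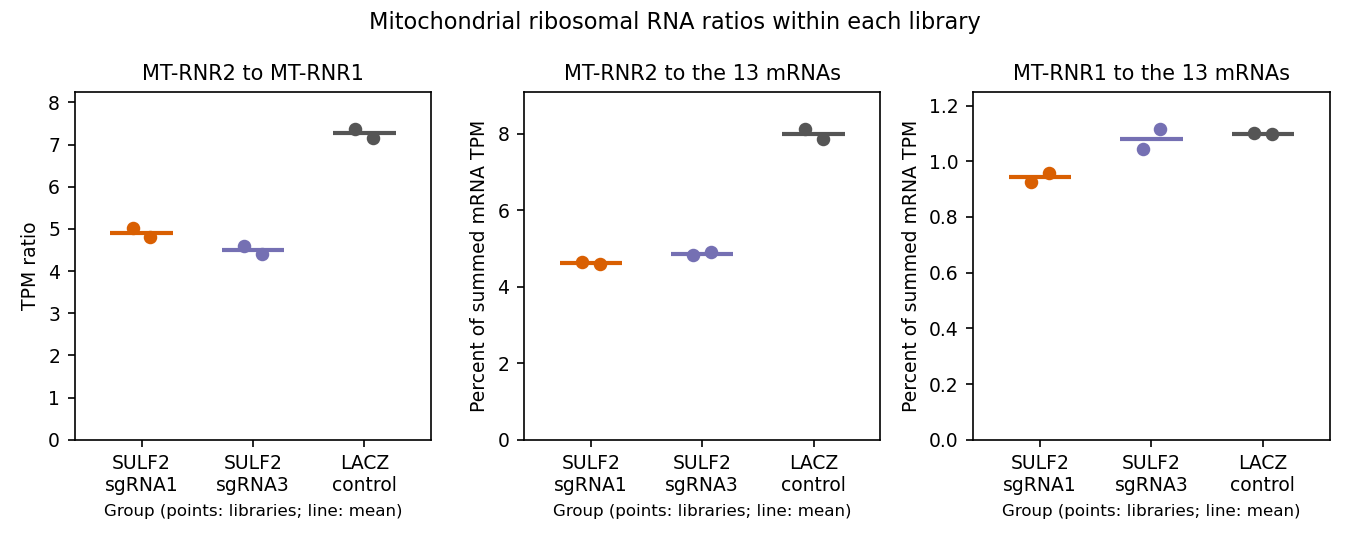
Ratios within each library, with points for libraries and a line for the group mean: MT-RNR2 to MT-RNR1, MT-RNR2 as a percent of the summed mRNA TPM, and MT-RNR1 as a percent of the same sum. MT-RNR2 is 4.41 to 5.01 times MT-RNR1 in the knockdown libraries and 7.17 and 7.36 times in LACZ.

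Among the mRNAs, the pair that directly follows MT-RNR2 on the precursor rose with both guides. MT-ND1 (ENSG00000198888), a membrane subunit of complex I, was at 3304 and 3086 TPM with sgRNA1 and 3147 and 3174 TPM with sgRNA3, against 2424 and 2365 TPM in LACZ. By limma it was up by 0.42 on the log2 scale for sgRNA1 (SE 0.039, adjusted p = 0.00823), which is 133% of the LACZ level, and by 0.40 for sgRNA3 (SE 0.039, adjusted p = 0.00862). MT-ND2 (ENSG00000198763), another membrane subunit of complex I, was at 4282 and 4143 TPM with sgRNA1 and 4199.7 and 4153 TPM with sgRNA3, against 3234 and 3334 TPM in LACZ. By limma it was up by 0.36 for sgRNA1 (SE 0.029, adjusted p = 0.00559) and by 0.35 for sgRNA3 (adjusted p = 0.00587), at 128% and 127% of LACZ. For both mRNAs every knockdown library lies above both LACZ libraries, and the guides are close together. The TPM of MT-ND1 was 0.675 and 0.656 times that of MT-RNR2 with sgRNA1 and 0.670 and 0.677 times with sgRNA3, against 0.311 times in each LACZ library. The MT-ND1 call was lost with sgRNA1 without either LACZ library (adjusted p = 0.0572 and 0.0566) and with sgRNA3 without sgRNA3 library 1, sgRNA3 library 2 or LACZ library 2 (0.0558, 0.0588 and 0.0590). The MT-ND2 call with sgRNA3 was lost without sgRNA3 library 1 (0.0503). Without an intensity trend in the prior variance, MT-ND1 was at adjusted p = 0.0731 and 0.0661 and MT-ND2 at 0.0805 and 0.0733 with sgRNA1 and sgRNA3.

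With sgRNA1, 5 of the 17 transcripts passed, 4 higher and 1 lower, against 6.0% of all 16610 genes tested, of which 1.69% were called higher and 4.31% lower. With sgRNA3 again 5 passed, 3 higher and 2 lower, against 9.08% of all genes, 3.84% higher and 5.25% lower. Other settings gave 1 to 8 calls with sgRNA1 and 1 to 7 with sgRNA3, and leaving out a library gave 2 to 4 and 1 to 5. MT-RNR2, MT-ND1 and MT-ND2 passed with both guides in the same direction, 2 higher and 1 lower, against 4.05% of all genes, 1.15% higher and 2.90% lower. Abundant genes were called more often than all genes. Of 139 genes with a mean of at least 1000 TPM, 124 of them not mitochondrial, 33 passed with sgRNA1 and 41 with sgRNA3. Most of the 17 transcripts are that abundant. The median log2 change of the 17 was 0.11 with sgRNA1 and 0.00 with sgRNA3, beside medians of -0.07 and -0.05 over all genes. Dropping the filter on low values ended the sgRNA1 call of MT-ND2 (adjusted p = 0.0514), and dropping either the filter or the intensity trend ended the calls of MT-ND6, MT-CYB, MT-CO1 and MT-TP, described below (0.0561 to 0.341). The transcripts are not independent of each other, since most are cut from a single precursor.

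**Figure D3:**
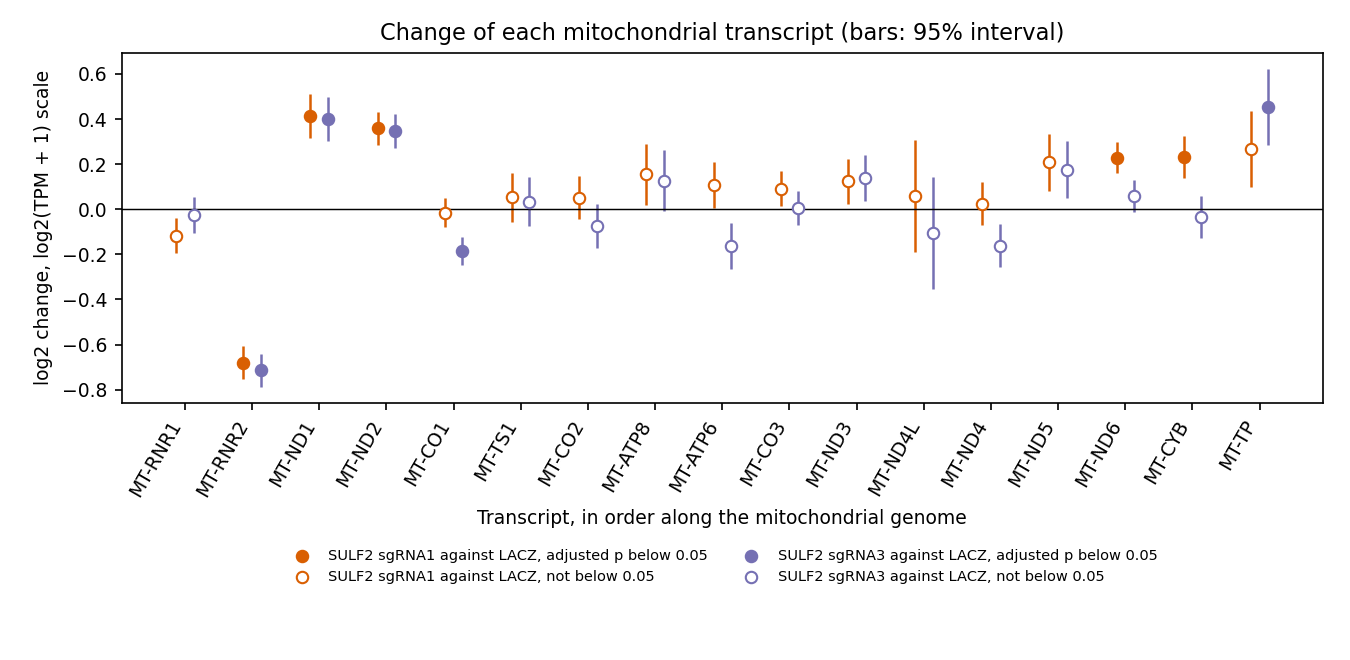
Log2 change against LACZ of each of the 17 transcripts with sgRNA1 and with sgRNA3, in genome order, with 95% intervals from limma; filled points have an adjusted p below 0.05. MT-RNR2 is at -0.68 and -0.71, and MT-ND1 and MT-ND2 next to it are at 0.35 to 0.42.

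The other complex I mRNAs moved less. MT-ND3 was at 6546 and 6723 TPM with sgRNA1 and 6924 and 6491 TPM with sgRNA3, against 6202 and 5982 TPM in LACZ (log2 changes 0.12 and 0.14, limma adjusted p = 0.138 and 0.0944). MT-ND5, which encodes a proton-pumping subunit, was at 2689 and 2453 TPM with sgRNA1 and 2515 and 2504 TPM with sgRNA3, against 2175 and 2271 TPM in LACZ (log2 changes 0.21 and 0.18, limma adjusted p = 0.0772 and 0.0919). For both genes all knockdown libraries are above LACZ, and neither passed on the TPM scale. MT-ND5 passed under median-of-ratios scaling with both guides (adjusted p = 0.0187 and 0.0257) and with sgRNA1 when scaled to MT-RNR1 (0.0397), and MT-ND3 with sgRNA3 under quantile normalization (0.0277). MT-ND4 was at 4203 and 4041 TPM with sgRNA1 and 3519 and 3718 TPM with sgRNA3, against 4004 and 4096 TPM in LACZ (log2 changes 0.03 and -0.16, limma adjusted p = 0.730 and 0.0604). Only the sgRNA3 libraries of MT-ND4 lie apart from LACZ, below it, and the change was called with genes under 5 TPM left out (adjusted p = 0.0378) and under quantile normalization (0.0262). MT-ND4L, which overlaps MT-ND4 by 7 bases and is read from the same bicistronic mRNA, was at 13285 and 10997 TPM with sgRNA1 and 10486 and 11089 TPM with sgRNA3, against 11063 and 12158 TPM in LACZ. Its libraries overlap between groups, and its intervals are the widest of the 17 (log2 change 0.06, 95% interval -0.19 to 0.31 with sgRNA1, and -0.11, 95% interval -0.35 to 0.14 with sgRNA3). The sgRNA1 changes of MT-ND4 and MT-ND4L turn negative under quantile normalization (-0.10 and -0.16) and when scaled to the mRNA sum (-0.08 and -0.05).

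MT-ND6, the only mRNA on the light strand, encodes a further membrane subunit of complex I. It was at 2065 and 2079 TPM with sgRNA1 and 1873 and 1813 TPM with sgRNA3, against 1779.96 and 1756 TPM in LACZ. All knockdown libraries are above LACZ, and it passed with sgRNA1 (log2 change 0.23, SE 0.028, limma adjusted p = 0.0164) and not with sgRNA3 (0.06, limma adjusted p = 0.235). Leaving out either sgRNA1 library or either LACZ library ended the call (adjusted p = 0.0687, 0.0858, 0.0839 and 0.0895), as did a replicate block (0.0516), a model term for the replicate number, and scaling to the mRNA sum (0.0603). On the opposite strand, MT-CYB, the complex III subunit cytochrome b, was at 2899.57 and 2738 TPM with sgRNA1 and 2335 and 2345 TPM with sgRNA3, against 2356 and 2439.92 TPM in LACZ. It was above LACZ in both sgRNA1 libraries (log2 change 0.23, SE 0.037, limma adjusted p = 0.0310) and just below it in both sgRNA3 libraries (-0.04, limma adjusted p = 0.587). Leaving out any 1 of the 6 libraries ended the sgRNA1 call (adjusted p = 0.0643 to 0.137), as did quantile normalization (0.166), scaling to the mRNA sum (0.0616), a fit of only these groups (0.0739) and the replicate block (0.0824). The sign with sgRNA3 turns under median-of-ratios scaling (0.02).

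Of the complex IV subunits, MT-CO1, the catalytic subunit of cytochrome c oxidase, was at 17245 and 17267 TPM with sgRNA1 and 15638 and 15049 TPM with sgRNA3, against 17346 and 17527 TPM in LACZ. It was lower with sgRNA3 (log2 change -0.18, SE 0.025, limma adjusted p = 0.0184) and did not pass with sgRNA1 (-0.01, limma adjusted p = 0.764). Leaving out either sgRNA3 library or either LACZ library ended the sgRNA3 call (adjusted p = 0.0648, 0.0973, 0.0768 and 0.0870), as did median-of-ratios scaling (0.0985), quantile normalization, which sets the change to 0, scaling to MT-RNR1 (0.0975) and the replicate block (0.0583). MT-CO2, which receives electrons from cytochrome c, was at 13547 and 12798 TPM with sgRNA1 and 12036 and 12119 TPM with sgRNA3, against 12403 and 13030 TPM in LACZ (log2 changes 0.05 and -0.07, limma adjusted p = 0.475 and 0.280). MT-CO3, a structural subunit of the same complex, was at 8244 and 8068 TPM with sgRNA1 and 7726 and 7633 TPM with sgRNA3, against 7832 and 7478 TPM in LACZ (log2 changes 0.09 and 0.00, limma adjusted p = 0.143 and 0.936). With sgRNA1, the values of MT-CO1, MT-CO2 and MT-CO3 each change sign, or reach 0, under at least 1 other scaling, while MT-CO1 was called lower when scaled to the mRNA sum (-0.12, adjusted p = 0.0437) and MT-CO3 higher under median-of-ratios scaling (0.18, adjusted p = 0.0474).

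MT-ATP8 and MT-ATP6, the complex V subunits, share a bicistronic mRNA and overlap by 46 bases, which are shown because reads in them can belong to either gene (chrM:8527-8572, with the first codon of MT-ATP6 in capitals).
Overlap: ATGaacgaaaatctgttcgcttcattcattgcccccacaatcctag
MT-ATP8 was at 22509 and 23450 TPM with sgRNA1 and 23503 and 21636 TPM with sgRNA3, against 21372 and 19944 TPM in LACZ. It had the highest TPM of the 37 genes in every library, and did not pass with either guide (log2 changes 0.15 and 0.13, limma adjusted p = 0.161 and 0.200). MT-ATP6 was at 4464 and 4369 TPM with sgRNA1 and 3599.76 and 3736 TPM with sgRNA3, against 3972 and 4243 TPM in LACZ. It was above LACZ in both sgRNA1 libraries and below it in both sgRNA3 libraries, and neither change passed (log2 changes 0.11 and -0.16, limma adjusted p = 0.191 and 0.0698). With sgRNA3 it was called lower with genes under 5 TPM left out (adjusted p = 0.0454) and under quantile normalization (-0.20, adjusted p = 0.0177), and with sgRNA1 higher when scaled to MT-RNR1 (0.22, adjusted p = 0.0451). In TPM, MT-ATP8 was 4.70 to 6.53 times MT-ATP6 in the same library although both sit on the same mRNA, and MT-ND4L was 2.72 to 3.16 times MT-ND4. TPM of genes on the same mRNA thus differed by these factors, so ratios between genes are set against each other only across libraries.

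No transcript passed limma between sgRNA3 and sgRNA1 at an adjusted p below 0.05, where 0.578% of all genes did (0.391% higher, 0.187% lower), although 9 of the 17 had an unadjusted p below 0.05. The smallest were MT-CYB (log2 difference -0.27, limma adjusted p = 0.0725), MT-CO1 (-0.17, limma adjusted p = 0.0851), MT-ATP6 (-0.27, limma adjusted p = 0.0856), MT-ND6 (-0.17, limma adjusted p = 0.0957) and MT-ND4 (-0.19, limma adjusted p = 0.130). All 5 were lower with sgRNA3, as were 12 of the 13 mRNAs, beside a median difference of 0.04 over all genes. The shares of all genes with an unadjusted p below 0.05, or with a lower value with sgRNA3, were not counted. The counts of 9 and 12 thus have no background, and the transcripts are not independent of each other. With genes under 5 TPM left out, MT-CO1 and MT-CYB passed (adjusted p = 0.0386 and 0.0432), MT-CYB passed under median-of-ratios scaling (0.0340) and MT-ATP6 under quantile normalization (0.0466), and 0 were called in the other settings. The 3 transcripts called with both guides were close between the guides: -0.03 for MT-RNR2, -0.01 for MT-ND1 (95% interval -0.11 to 0.08) and -0.01 for MT-ND2 (95% interval -0.09 to 0.06).

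The tRNAs above 0 both lie on the light strand. MT-TS1, a serine tRNA at chrM:7446-7514 beside the end of MT-CO1, was at 1007 and 965 TPM with sgRNA1 and 991.0 and 956 TPM with sgRNA3, against 925 and 977 TPM in LACZ, and the groups overlap (log2 changes 0.05 and 0.03, limma adjusted p = 0.511 and 0.656). MT-TP, a proline tRNA at chrM:15956-16023, was at 332 and 302 TPM with sgRNA1 and 362 and 359 TPM with sgRNA3, against 250.23 and 276 TPM in LACZ. All knockdown libraries are above LACZ. It passed with sgRNA3 (log2 change 0.45, SE 0.067, limma adjusted p = 0.0228) and not with sgRNA1 (0.27, limma adjusted p = 0.0854), except under median-of-ratios scaling or scaling to MT-RNR1 (0.0329 and 0.0451). That call ended when either sgRNA3 library or either LACZ library was left out (adjusted p = 0.105, 0.0977, 0.0887 and 0.0608) and with the replicate block (0.0606). The sources used here do not say whether the libraries keep strand, so reads of either tRNA cannot be told from reads of the precursor of the opposite strand.

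Copies of mitochondrial genes in nuclear chromosomes can share reads with them. Of 407 such copies, 3 reached a mean of 10 TPM. MTRNR2L1, a copy of MT-RNR2 on chromosome 17 (22523111 to 22524663), was at 21.35 and 24.88 TPM with sgRNA1 and 17.30 and 18.06 TPM with sgRNA3, against 36.88 and 39.64 TPM in LACZ. It too was lower with both guides (log2 changes -0.71 and -1.07, limma adjusted p = 0.0232 and 0.00788), which with sgRNA1 was lost without any 1 library (0.0556 to 0.120), without the intensity trend (0.0582) and in a fit of only these groups (0.0528), and with sgRNA3 without sgRNA3 library 1 or LACZ library 2 (0.0506 and 0.0593). It equalled 0.368% to 0.529% of the TPM of MT-RNR2. Its sequence is identical to MT-RNR2 at 87.5% of 1569 aligned positions, and 11 of the 1510 windows of 50 bases in MT-RNR2 occur in it unchanged. Among 60-base stretches without a gap in the alignment, the one with the most differences, 16, is shown for both, with capitals at the bases that differ. It lies at chrM:2831-2890 and chr17:22524260-22524319, both plus strand.
MT-RNR2: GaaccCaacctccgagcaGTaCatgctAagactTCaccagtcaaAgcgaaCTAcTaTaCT
MTRNR2L1: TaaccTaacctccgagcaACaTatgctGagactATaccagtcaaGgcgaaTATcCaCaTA
With the TPM of all copies added to their mitochondrial genes, the log2 ratio of MT-RNR2 to MT-RNR1 still differed by -0.63 between the knockdown libraries and LACZ. MTATP6P1, a copy of MT-ATP6 on chromosome 1 that is 98.5% identical to it, was at 498 and 482 TPM with sgRNA1 and 386 and 411 TPM with sgRNA3, against 427 and 446 TPM in LACZ. It lies above LACZ with sgRNA1 and below it with sgRNA3, as MT-ATP6 does, and did not pass (log2 changes 0.17 and -0.13, limma adjusted p = 0.103 and 0.142), except with sgRNA1 under median-of-ratios scaling or scaling to MT-RNR1 (0.0358 and 0.0274). MTCO1P12, 98.6% identical to MT-CO1, was at 97.56 and 110.31 TPM with sgRNA1 and 90.83 and 80.83 TPM with sgRNA3, against 110.07 and 110.46 TPM in LACZ, and did not pass either (log2 changes -0.09 and -0.36, limma adjusted p = 0.582 and 0.0625), except with sgRNA3 with genes under 5 TPM left out (0.0462).

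Nuclear genes make, cut and modify mitochondrial RNA, and 70 of them were set out in 6 lists by role. With sgRNA1, 2 of the 70 passed and were higher, beside 1.69% of all genes called higher, and with sgRNA3, 8 passed and were higher, beside 3.84%. By limma 0 were called lower with either guide (9 and 5 at an unadjusted p below 0.05), beside 4.31% and 5.25% of all genes, and 0 were called between the guides (13 at an unadjusted p below 0.05). Of the 70, 54 had a positive difference between sgRNA3 and sgRNA1 (median 0.12). The median over all genes was itself above 0, at 0.04, and the share of all genes above 0 was not counted. Median-of-ratios scaling gave 14 calls with sgRNA3, beside 1830 of 16584 genes, 1042 higher and 788 lower. Scaling to the mRNA sum gave 5 with sgRNA1, beside 1922 of 16587 genes, 200 higher and 1722 lower. The direction of the 14 and the 5 was not counted, so 0 called lower holds for the main fit only. The median log2 change of the 70 was -0.03 with sgRNA1 and 0.08 with sgRNA3, beside -0.07 and -0.05 over all genes. The counts of 2 and 8 ranged from 0 to 1 with sgRNA1 and from 0 to 6 with sgRNA3 when any 1 library was left out.

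In the transcription list, 0 of 9 passed limma with sgRNA1 (1 at an unadjusted p below 0.05). With sgRNA3, 1 of the 9 was called higher, beside 3.84% of all genes. That gene was TFAM, which packages mitochondrial DNA and starts its transcription, at 49.4 TPM in each sgRNA1 library and 55.85 and 58.10 TPM with sgRNA3, against 45.16 and 46.87 TPM in LACZ (log2 change with sgRNA3 0.30, limma adjusted p = 0.0380). MTERF1, which binds the capitalised element of MT-TL1 shown above, was at 14.47 and 15.07 TPM with sgRNA1 and 16.16 and 16.08 TPM with sgRNA3, against 14.85 and 13.08 TPM in LACZ and did not pass (log2 changes 0.08 and 0.20, limma adjusted p = 0.679 and 0.269). POLRMT, the mitochondrial RNA polymerase, did not pass either (-0.11 and -0.16, limma adjusted p = 0.629 and 0.444). The single machinery gene called with both guides was SSBP1, the single-stranded DNA binding protein of mitochondrial DNA replication. It was at 421.92 and 421.26 TPM with sgRNA1 and 418 and 422.09 TPM with sgRNA3, against 347 and 332 TPM in LACZ (log2 change 0.31 with each guide, limma adjusted p = 0.0145 and 0.0128). Every knockdown library of SSBP1 exceeds both LACZ libraries. Its sgRNA1 call ended when any 1 of the sgRNA1 or LACZ libraries was left out (adjusted p = 0.0651, 0.0753, 0.0572 and 0.0743) and its sgRNA3 call without sgRNA3 library 1, sgRNA3 library 2 or LACZ library 2 (0.0728, 0.0800 and 0.0683).

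Of 12 genes that cut and finish the precursor, 3 were higher with sgRNA3, beside 3.84% of all genes. By limma 0 were called with sgRNA1 (4 at an unadjusted p below 0.05). The 3 called with sgRNA3 were ELAC2, which cuts the 3′ end of tRNAs (log2 change 0.61, limma adjusted p = 0.0175), PRORP, the protein that cuts their 5′ end (0.43, 0.0347), and FASTKD5, which is needed where no tRNA marks the cut (0.51, 0.0308). ELAC2 was at 34.50 and 31.15 TPM with sgRNA1 and 48.49 and 47.75 TPM with sgRNA3, against 32.55 and 29.95 TPM in LACZ, so only the sgRNA3 libraries stand clearly apart. Its difference between the guides was 0.54 and did not pass (limma adjusted p = 0.0856), except with scaling to the mRNA sum (0.64, adjusted p = 0.0323). In the stability and decay list, limma called 0 of 8 with sgRNA1 (3 at an unadjusted p below 0.05). With sgRNA3, 2 of the 8 were higher, beside 3.84% of all genes. These were PNPT1, a polynucleotide phosphorylase that degrades mitochondrial RNA (0.75, 0.0184), and GRSF1, an RNA granule protein (0.29, 0.0396). For the 16S rRNA itself, 18 genes that modify it or assemble the large subunit gave 1 call with each guide. Over all genes, 1.69% were called higher with sgRNA1 and 3.84% with sgRNA3. MALSU1, an assembly factor, was higher with sgRNA1 (0.38, limma adjusted p = 0.0499, and not called under a pseudocount of 0.1 or 5) and NGRN, a factor needed for 16S stability, with sgRNA3 (0.32, limma adjusted p = 0.0408). FASTKD2, which binds 16S rRNA, did not pass (0.18 and 0.35, limma adjusted p = 0.324 and 0.0869), except with sgRNA3 under median-of-ratios scaling or quantile normalization (0.0412 and 0.0471). Of 10 genes for the 12S rRNA and small subunit, limma called 0 with either guide (1 at an unadjusted p below 0.05 with each). The genes called with only 1 guide were named after their values were seen, and each lost its call without either LACZ library and without at least 1 other library, with a highest adjusted p between 0.0912 (ELAC2) and 0.191 (MALSU1).

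**Figure D4:**
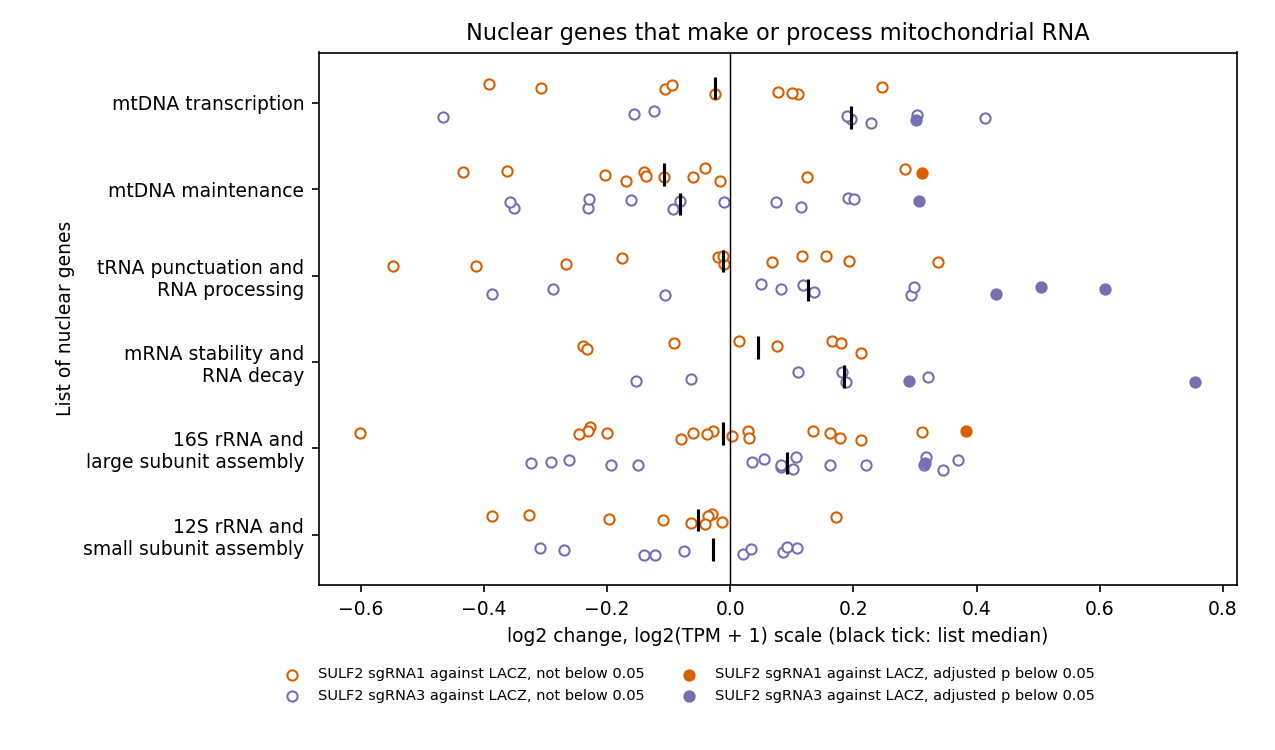
Log2 change against LACZ of the 70 nuclear genes in 6 lists, sgRNA1 above sgRNA3 within each list, with filled points at an adjusted p below 0.05 and a tick at the list median. With sgRNA3 the filled points lie between 0.29 and 0.75, and no filled point lies below 0 with either guide.

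RNAs without a poly(A) tail were set beside the rRNAs, because mitochondrial RNAs carry short tails or none and how the libraries select RNA is not stated in the labels. Of 20 such RNAs, 12 were listed at 0 in all libraries and 7 were tested. Their summed level was 1455 and 1635 TPM with sgRNA1 and 1337 and 1671 TPM with sgRNA3, against 1303 and 1250.36 TPM in LACZ, and limma called 0 of the 7 with either guide (1 at an unadjusted p below 0.05 with each). The summed level was higher in every knockdown library, and nearly all of it was RN7SL1 and RN7SL2. RN7SL1 was at 565 and 624 TPM with sgRNA1 and 492 and 628 TPM with sgRNA3, against 398 and 437 TPM in LACZ. RN7SL2 overlapped LACZ with both guides, so the sum does not stand for these RNAs as a class. The part of library selection in the MT-RNR2 result was not tested. Among the 139 genes with a mean of at least 1000 TPM, 33 passed with sgRNA1 and 41 with sgRNA3. With sgRNA1, ANKRD1 (-0.71) was the only one of them lower than MT-RNR2 in log2 change, and with sgRNA3 none was. Over all 16610 genes tested, 1162 with sgRNA1 and 1200 with sgRNA3 had a lower log2 change than MT-RNR2.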

How the data were processed

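Per the submitters' processing notes, the reads of 6 libraries were processed with HISAT2 2.1.0 and RSEM 1.3.1 on GRCh38. What each tool did, and the annotation and handling of shared reads, are not stated there. The deposited table holds TPM values, computed by the authors, and no counts, so depth is unknown. The guide number tied columns H1 and H3 to titles S1 and S3.

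Tests used log2(TPM + 1) for the 16610 genes that reached 1 TPM in 2 or more libraries. The 3 groups were fitted together in limma 3.58.1 (R 4.3.3), with an intensity trend, 3 residual degrees of freedom and 2.34 prior ones. Two-sided p-values were adjusted over all these genes by Benjamini and Hochberg (threshold 0.05). The share of all genes at an unadjusted p below 0.05 was not counted, so counts at that level are given without a background. The scale shrinks changes of low genes. Ratios were tested by exact permutation over libraries. No label says that libraries are separate cultures, so p-values cover only the spread between libraries, which may be technical. Alternatives were other pseudocounts, filters, scalings and prior variances, fits of only the groups compared, a replicate block, and leaving out each library.

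Both rRNAs and all mRNAs are named, with the tRNAs above 0, machinery genes called with both guides and nuclear copies at a mean of 10 TPM or more. POLRMT, MTERF1 and FASTKD2 were named after their values were seen. The members and lists were chosen with earlier results of these data known. Sequences and coordinates come from GENCODE 29 (GRCh38), whose lengths equal the deposited ones for all 37 genes.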

Additional observations from a re-analysis of the deposited data

Results flagged for a closer look

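In 4 of the values named here, both sgRNA1 libraries lay on one side of LACZ and both sgRNA3 libraries on the other. How many of all genes show such an order was not counted. The 4 are not separate, since MTATP6P1 is 98.5% identical to MT-ATP6 and the mitochondrial share contains MT-ATP6 and MT-CYB. MT-ATP6 was at 4464 and 4369 TPM with sgRNA1 and 3599.76 and 3736 TPM with sgRNA3, against 3972 and 4243 TPM in LACZ, and differed between sgRNA3 and sgRNA1 by -0.27 on the log2 scale (limma adjusted p = 0.0856). MT-CYB was at 2899.57 and 2738 TPM with sgRNA1 and 2335 and 2345 TPM with sgRNA3, against 2356 and 2439.92 TPM in LACZ, and differed by -0.27 (limma adjusted p = 0.0725). MTATP6P1, the nuclear copy of MT-ATP6, was at 498 and 482 TPM with sgRNA1 and 386 and 411 TPM with sgRNA3, against 427 and 446 TPM in LACZ, and differed by -0.30 (limma adjusted p = 0.0897). None of these differences between the guides passed, but MT-ATP6 did under quantile normalization (adjusted p = 0.0466), and MT-CYB under median-of-ratios scaling (0.0340) and with genes under 5 TPM left out (0.0432). The mitochondrial share of all TPM was 11.2% and 10.9% with sgRNA1 and 10.5% and 10.3% with sgRNA3, against 10.6% and 10.7% in LACZ. The log2 ratio of the mean shares, sgRNA3 over sgRNA1, was -0.10, and this difference was not tested, since an exact permutation test of 2 libraries against 2 cannot go below p = 0.333.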

How the results depend on the processing

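MT-RNR2 was called lower with both guides in all 11 alternatives run and without any 1 library (adjusted p 3.6e-04 to 0.0348 with sgRNA1 and 4.1e-04 to 0.0311 with sgRNA3). The number of mitochondrial transcripts called, 5 with each guide against LACZ, was 2 and 3 without a filter on low values, 1 and 1 without an intensity trend, and 3 and 3 with the replicate block (with sgRNA1 and with sgRNA3). With sgRNA1 it was 8 under median-of-ratios scaling and 8 when scaled to MT-RNR1, a setting chosen after seeing the data. Between sgRNA3 and sgRNA1 it was 2 with genes under 5 TPM left out, 1 under median-of-ratios scaling and 1 under quantile normalization, beside 0. The machinery genes called with sgRNA1, 2 in number, became 1 with a pseudocount of 0.1 or 5, without the filter, with only the groups compared or with the block, 0 without the trend, and 5 when scaled to the mRNA sum. With sgRNA3 the 8 became 5 without the filter, 14 under median-of-ratios scaling, 1 without the trend and 3 with the block, and between the guides 3 were called when scaled to the mRNA sum. The direction of the machinery calls was not counted in these settings. Over all genes, median-of-ratios scaling called 1830 with sgRNA3. Scaling to the mRNA sum called 1922 with sgRNA1 and 391 between the guides. Same-numbered libraries showed no shared shift (correlation of their differences over all genes -0.03 to 0.01), and the labels do not say whether they share a culture. The block lowered the calls over all genes (997 and 1509) to 377 with sgRNA1 and 561 with sgRNA3. SULF2 stayed lower in every setting, by -0.86 to -1.33, but its call was lost with sgRNA1 without the filter (adjusted p 0.0768), under quantile normalization (0.053), without the trend (0.0675), with only the groups compared (0.0672), with the block (0.0819) and in 5 of 6 fits without 1 library, and with sgRNA3 without the filter (0.0528), without the trend (0.0511), with the block (0.0583) and in 4 of 6.

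Small changes turned sign. Median-of-ratios scaling gave MT-CO1 0.069 and PRORP 0.073 with sgRNA1, and MT-RNR1 0.031 and MT-CYB 0.020 with sgRNA3. Quantile normalization gave MT-CO2 -0.088, MT-ND4L -0.16, MT-ND4 -0.10, PRORP 0.060 and POLRMT 0.010 with sgRNA1, and MT-RNR2 0.083 and MT-CO1 0.16 between sgRNA3 and sgRNA1. Scaling to the mRNA sum gave MT-TS1 -0.054, MT-CO2 -0.055, MT-ATP6 -4.5e-04, MT-CO3 -0.014, MT-ND4L -0.046, MT-ND4 -0.081, GRSF1 -0.029, TFAM -0.0032, MTERF1 -0.021 and ELAC2 -0.035 with sgRNA1, and MT-RNR2 0.072 between the guides. Scaling to MT-RNR1 gave MT-CO1 0.10, MTCO1P12 0.029 and POLRMT 0.0053 with sgRNA1. The mitochondrial share differed from LACZ by -0.282 points with sgRNA3 alone. The cause of these changes was not tested. Over all genes, median-of-ratios scaling moved the calls with sgRNA1 to 606 higher and 576 lower and quantile normalization to 442 and 560, beside 281 and 716, and those with sgRNA3 to 1042 and 788 and to 776 and 808, beside 637 and 872. Scaling to the mRNA sum moved the median over all genes to -0.16 with sgRNA1, beside -0.07. Scaling to MT-RNR1 gave 651 and 438 with sgRNA1, and 615 and 657 with sgRNA3.

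Without 1 library at a time, the transcripts called ranged from 2 to 4 with sgRNA1 and from 1 to 5 with sgRNA3, the machinery genes called from 0 to 1 and from 0 to 6, and the share difference from -0.0945 to 0.238 points. The log2 changes with sgRNA1 ranged from -0.077 to 0.20 for MT-ND4L, from -0.0031 to 0.054 for MT-ND4, from -0.0033 to 0.14 for ELAC2, from -0.084 to 0.065 for PRORP, from -0.17 to 5.9e-04 for MTCO1P12, from -0.0076 to 0.16 for MTERF1 and from -0.24 to 0.031 for POLRMT. With sgRNA3 they ranged from -0.056 to 0.0065 for MT-RNR1, from -0.0057 to 0.073 for MT-TS1 and from -0.028 to 0.038 for MT-CO3. With 1 library left in a group, that library is assumed to vary like the other groups. TPM keeps no depth, so how depth limits a value is unknown.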
